A study of Rattus norvegicus with 24 samples.

Results

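The miRNA content of the paraventricular nucleus (PVN) of the hypothalamus was compared between rats given partial hepatectomy with sham electroacupuncture (HT + SEA) and normal control (NC) rats. The 6 libraries of this comparison, 3 from each group, were those labelled PVN and either SEA or NC among 24 libraries in all. The animals were male Sprague-Dawley rats, bought at 7 weeks of age, in 4 treatment groups, and the central amygdala (CEA) was taken as well. HT + SEA rats had about 20% of the left liver lobe removed under isoflurane and had needles placed at a pair of hind limb acupoints without any current, before and after the operation. NC rats had no operation and no needles, but were held in the same restraint for as long. HT rats had the operation and the restraint only, and HT + EA rats the operation with current through the needles. Tissue was dissected 24 h after the last session. Isoflurane, incision, loss of liver tissue and needling were given together to HT + SEA rats and to no NC rat, so their parts in a difference from NC cannot be told apart within this comparison. The test against HT, given after it, bears on needling alone, since HT rats had the operation without needles. Brains were collected from separate rats within a batch and no label ties a library to a rat, so p-values measure the spread between these libraries.

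A miRNA is an RNA of about the length of the sequences shown here that guides Argonaute proteins to messenger RNAs, mostly through pairing of bases 2 to 8 from its 5′ end, the seed, and so lowers their translation or stability. The PVN holds the neurons that release corticotropin-releasing hormone (CRH) and start the pituitary and adrenal response to surgery and other stressors, beside neurons that make oxytocin and vasopressin. A dissected nucleus also holds glia, vessels, blood and parts of its borders, the lining of the third ventricle among them. In whole tissue, fewer cells of a type and less of a miRNA per cell cannot be told apart.

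The mature sequences of 14 miRNAs described in the comparison are given here as RefSeq lists them for the rat, 5′ to 3′ with the seed in capitals. miR-30b-5p and miR-30d-5p, on which the comparison also turned, are named only. The first 4 are miRNAs of striated muscle and show which of them share a seed.
miR-1-3p: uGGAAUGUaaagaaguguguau
miR-1b: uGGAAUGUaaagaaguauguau
miR-206-3p: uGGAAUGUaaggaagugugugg
miR-133a-3p: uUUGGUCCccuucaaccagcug
The next are the myeloid miR-223-3p, the related miR-10a-5p and miR-10b-5p of the Hox clusters, which varied widely between replicates, and a pair read from opposite strands of a single locus.
miR-223-3p: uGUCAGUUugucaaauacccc
miR-10a-5p: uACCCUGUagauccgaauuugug
miR-10b-5p: cCCUGUAGaaccgaauuugugu
miR-200a-5p: cAUCUUACcggacagugcugg
miR-3548: cAGCACUGuccgguaagaugcc
The last are members that were higher in HT + SEA, and miR-34c-5p, which shares the seed of miR-34a-5p and was lower.
miR-676: cCGUCCUGagcuugucgagcua
miR-434-3p: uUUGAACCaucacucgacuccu
miR-338-5p: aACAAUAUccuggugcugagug
miR-34a-5p: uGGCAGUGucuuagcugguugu
miR-34c-5p: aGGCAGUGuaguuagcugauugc
In the GRCr8 build, miR-206-3p lies at chr9:30590747-30590768 on the plus strand, with the hairpin of miR-133b starting 3802 bases after the end of the miR-206 hairpin. The hairpin of miR-1 at chr18:2160327-2160413 and that of miR-133a at chr18:2157872-2157958 lie 2369 bases apart on the minus strand. miR-1b is a separate locus, at chr3:187864736-187864757, and its mature sequence differs from that of miR-1-3p at 1 of 22 bases. How the reads were shared out between miRNAs that differ so little is not given in the sources used here, so the levels of this pair are uncertain against each other. miR-200a-5p at chr5:171930770-171930790 and miR-3548 at chr5:171930771-171930792 lie on opposite strands and overlap by 20 bases.

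Opposite-strand pairs of this kind were not separate measurements in these data. Of 44 pairs of known miRNAs that overlap on opposite strands, 35 had total counts within 20% of each other and 8 had the same count in each of the 24 libraries. miR-133c repeated the counts of miR-133a-3p and miR-3543 those of miR-434-3p, and miR-3548 had 341 counts in all where miR-200a-5p had 382. Such pairs are described here by the member on the strand of the better known miRNA, except that miR-3548, which the study names, is given beside miR-200a-5p and is no second measurement, and a count of called miRNAs holds both members.

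Between 6584345 and 10668808 reads were counted on miRNAs in the NC libraries and between 13059380 and 13897929 in the HT + SEA libraries, so that the deeper group was HT + SEA without any overlap. Levels are given as CPM, the count divided by the library's total and scaled to a fixed total. A count of 3 was taken as the fewest that shows a miRNA, a limit for counting error only, and equals 0.216 CPM in the deepest of the 6 libraries and 0.456 CPM in the shallowest. Levels of the 524 miRNAs with a mean of at least 10 counts correlated between the 6 libraries at r = 0.986 to 0.994 on the log2 scale. miR-7a-5p, known for its high level in the hypothalamus, was between 124575 and 156781 CPM.

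In HT + SEA the muscle miRNAs miR-1b and miR-133a-3p were 1.99-fold and 2.17-fold lower than in NC, and miR-30b-5p and miR-30d-5p were 1.5-fold and 1.36-fold higher, each without overlap between the groups. The myeloid miR-223-3p was 14.0-fold lower and the muscle miR-206-3p 4.03-fold lower, in NC libraries that differed widely among themselves. Of 1006 miRNAs tested with edgeR's quasi-likelihood test, 69 (6.86%) passed the study's threshold of an unadjusted p under 0.05, with 19 (1.89%) higher and 50 (4.97%) lower in HT + SEA. At a Benjamini-Hochberg adjusted p under 0.05, 11 (1.09%) passed, which were miR-30b-5p and miR-30d-5p among the higher, and miR-223-3p, miR-206-3p, miR-10b-5p, miR-10a-5p, miR-1b, miR-133a-3p, its repeat miR-133c and the predicted novel_1137 and novel_789 among the lower. The CPM of the groups did not overlap for 90 miRNAs (8.95%), of which 55 (5.47%) were higher and 35 (3.48%) lower in HT + SEA. With upper-quartile scaling in place of TMM, 87 miRNAs passed the unadjusted threshold of which 50 were higher and 37 lower. All 19 higher calls and 37 of the 50 lower calls were kept under that scaling, and the rest of the change in balance came from further higher calls. That scaling moved the median difference of all miRNAs by 0.09 on the log2 scale.

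Differences were small at most abundant miRNAs. Among the 379 miRNAs with a mean of at least 100 counts, 37 were called, 14 higher and 23 lower, with a median size of 0.35 on the log2 scale. The 10 most abundant, with 58.8% of all counts, had log2 fold changes of -0.13 to 0.05 and standard errors of 0.10 to 0.11, and none was called by edgeR or DESeq2. They were miR-7a-5p, miR-9a-5p with its opposite-strand miR-9b-3p, miR-148a-3p, miR-127-3p, miR-99a-5p, let-7f-5p with its opposite-strand miR-3596d, let-7i-5p and let-7g-5p. edgeR's spread was shared fully between miRNAs in this comparison, so its adjusted p and its standard error are too small for a miRNA that varied widely between replicates. A standard error printed for this comparison does not measure the miRNA's own spread. For the miRNAs past the adjusted threshold, the adjusted p of a fit with a robust spread and of DESeq2 is given beside that of edgeR. Of the predicted ones, novel_1137 had an adjusted p of 8.24e-16 in edgeR and 0.894 with the robust spread, and DESeq2 gave none. For novel_789 the adjusted p was 0.000701 in edgeR, 0.0126 with the robust spread and 0.392 in DESeq2.

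**Figure D1:**
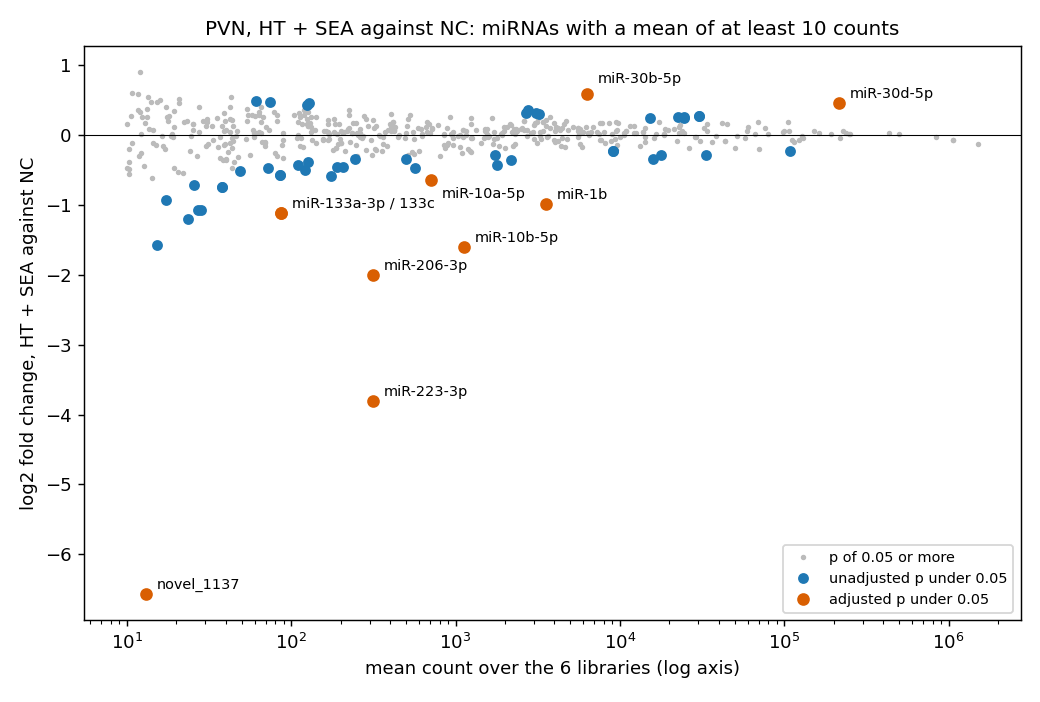
Log2 fold change in the PVN (HT + SEA against NC, vertical axis) against the mean count over the 6 libraries (horizontal log axis) for the 524 miRNAs with a mean of at least 10 counts. Blue points passed an unadjusted p under 0.05 and orange points an adjusted p under 0.05 with edgeR, and the differences of the 37 called miRNAs with at least 100 counts were mostly small, with a median size of 0.35.

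The miRNAs of striated muscle, which act in the formation of skeletal and heart muscle, were lower in HT + SEA. Of 8 on the list, 6 were tested, 4 were called lower with edgeR and with DESeq2 and none higher, where edgeR called 4.97% of all miRNAs lower, and the median log2 fold change was -1.06 where that of all miRNAs was 0.03. Their summed level was 387 to 675 CPM in NC and 250 to 291 CPM in HT + SEA.

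miR-1b had 630, 446 and 341 CPM in the NC libraries and 267, 232 and 229 CPM in the HT + SEA libraries. The lowest NC library stood above the highest HT + SEA library. Its mean was 472 ± 146 CPM in NC and 243 ± 21.5 CPM in HT + SEA (SD, n = 3 each). The log2 fold change was -0.99 with a standard error of 0.13, with an adjusted p of 1.15e-11 in edgeR, 1.57e-08 with the robust spread and 0.000138 in DESeq2.

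miR-133a-3p, which is transcribed with miR-1 in muscle, had 13.8, 13.7 and 7.88 CPM in NC and 5.90, 5.18 and 5.58 CPM in HT + SEA. Again the groups did not overlap, with replicate 3 of NC nearest to HT + SEA. The log2 fold change was -1.12 with a standard error of 0.21, with an adjusted p of 1.84e-05 in edgeR, 1.22e-05 with the robust spread and 0.0243 in DESeq2. Both miRNAs kept their call at the unadjusted threshold under each of 13 other ways of processing and without each library in turn. Without replicate 3 of HT + SEA none of the 11 adjusted calls was left, and the adjusted p of both was 0.437 in edgeR.

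miR-206-3p, found mostly in skeletal muscle, had 25.7, 91.0 and 32.9 CPM in NC and 14.7, 11.8 and 11.8 CPM in HT + SEA. Replicate 2 of NC was far above the other NC libraries, and the groups still did not overlap. The log2 fold change was -2.01 with an adjusted p of 3.95e-26 in edgeR, against 0.65 with the robust spread and 0.0632 in DESeq2. It stayed past the adjusted threshold in edgeR with filterByExpr (adjusted p of 0.031), with at least 10 counts (0.0287), with known miRNAs only (0.00497) and with all groups in the fit (8.03e-05), in which the spread was not shared fully. Across the fits that left out a library its log2 fold change lay between -2.32 and -1.21.

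miR-1-3p had few reads, with 4.56, 4.50 and 4.89 CPM in NC and 2.45, 2.73 and 3.20 CPM in HT + SEA. The groups did not overlap and the log2 fold change was -0.75 with a standard error of 0.28, at an adjusted p of 0.315 in edgeR, 0.336 with the robust spread and 0.999 in DESeq2. The other tested members, miR-133b-3p at -0.94 and miR-133a-5p at -2.28, were below 2 CPM in each library and were not called.

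The myeloid miR-223-3p, which is made by neutrophils and macrophages, had the widest difference among called miRNAs with a mean of at least 100 counts. It had 22.3, 89.0 and 81.2 CPM in NC (147, 949 and 598 counts) and 11.1, 1.58 and 1.49 CPM in HT + SEA (145, 22 and 20 counts). All NC libraries were above all HT + SEA libraries, but replicate 1 of each group lay nearer to the other group. The log2 fold change was -3.81, a 14.0-fold lower level. The adjusted p was 3.33e-77 in edgeR, 0.585 with the robust spread and 0.0501 in DESeq2. In the same 4 fits as for miR-206-3p it was 0.031, 0.0287, 0.00497 and 2.61e-06 in edgeR, and the log2 fold change was -5.38 to -3.39 in the fits that left out a library.

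Of the 9 myeloid and inflammation miRNAs listed, miR-223-3p alone was called, by edgeR and by DESeq2, where edgeR called 6.86% of all miRNAs. The list's median was 0.01. miR-142-3p, a miRNA of blood cells, had 28.9, 51.3 and 41.1 CPM in NC and 44.9, 40.2 and 36.0 CPM in HT + SEA, with a log2 fold change of -0.03 and a standard error of 0.17. The immune miR-155-5p (0.40, standard error 0.24), miR-146a-5p (-0.16, standard error 0.14) and miR-21-5p (0.11, standard error 0.11) were not called either, though miR-155-5p was called higher with upper-quartile scaling, at 0.48. The passenger strand miR-223-5p was below 1 CPM in each library. The summed level of the list was 5656 to 7879 CPM in NC and 6846 to 7508 CPM in HT + SEA. The part of blood or other myeloid cells in the difference was not tested.

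Of the red cell miRNAs, 1 of 4 was called, where 6.86% of all miRNAs were, and a single call in so short a list says little of the list. miR-451-5p, processed in red cell precursors without Dicer, had 164, 216 and 198 CPM in NC and 140, 146 and 150 CPM in HT + SEA. The groups did not overlap and the log2 fold change was -0.43 with a standard error of 0.14, at an adjusted p of 0.121 in edgeR, 0.173 with the robust spread and 0.0632 in DESeq2. miR-144-3p, from the same hairpin cluster, differed by -0.11, miR-144-5p by 0.26 and miR-486 by -0.01, and the summed level of the list was 270 to 336 CPM in NC and 253 to 297 CPM in HT + SEA. None of 4 liver miRNAs was called by edgeR or DESeq2, and miR-122-5p, the main miRNA of hepatocytes, was between 0.744 and 1.67 CPM in the 6 libraries.

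**Figure D2:**
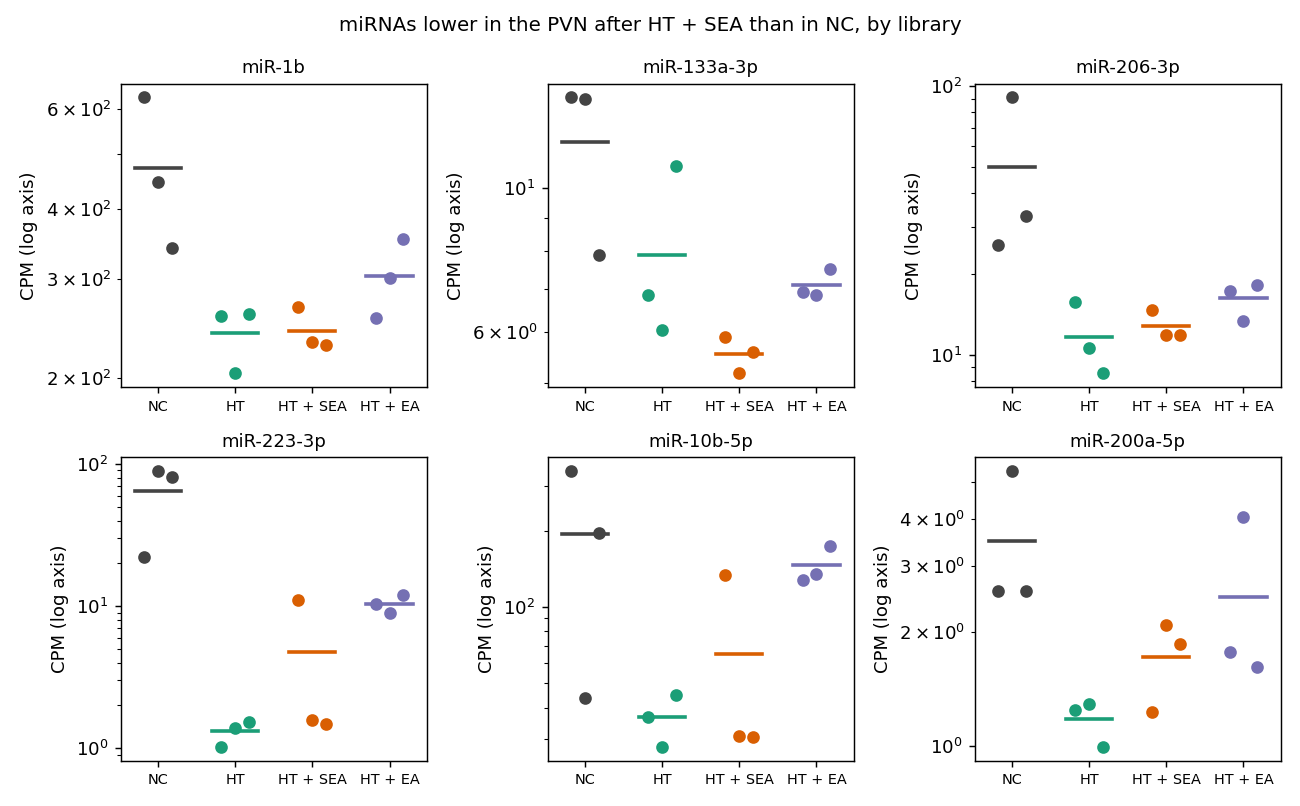
CPM (log axes) of 6 miRNAs in each PVN library of the NC, HT, HT + SEA and HT + EA groups, 3 points a group with a line at their arithmetic mean. miR-1b, miR-133a-3p, miR-206-3p, miR-223-3p and miR-200a-5p show no overlap between NC and HT + SEA, miR-10b-5p overlaps, and replicate 2 of NC is the highest point of miR-206-3p, at 91.0 CPM.

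miRNAs of the Hox clusters, which mark the hindbrain and spinal levels and structures outside the brain, varied widely between replicates, and 2 of 6 tested were called lower in HT + SEA and none higher, where 4.97% of all miRNAs were called lower. miR-10b-5p had 343, 43.8 and 196 CPM in NC and 134, 31.0 and 30.6 CPM in HT + SEA. Replicate 1 of HT + SEA was above replicate 2 of NC, so the groups overlapped. The log2 fold change was -1.61 at an adjusted p of 1.82e-24 in edgeR, against 0.894 with the robust spread and 0.999 in DESeq2.

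miR-10a-5p showed the same overlap, with 116, 46.8 and 98.3 CPM in NC and 69.6, 55.0 and 44.5 CPM in HT + SEA. Its log2 fold change was -0.64 at an adjusted p of 0.00328 in edgeR, 0.894 with the robust spread and 0.999 in DESeq2. In edgeR both also missed the adjusted threshold with filterByExpr, with at least 10 counts, with known miRNAs only and with all groups in the fit, at 0.0848 to 0.713. Without replicate 3 of HT + SEA neither miR-10b-5p nor miR-10a-5p passed the unadjusted threshold. The other Hox miRNAs tested, 4 of the 6, were not called, and DESeq2 called none of the 6. The summed level ran from 91.1 to 460 CPM in NC and from 75.5 to 204 CPM in HT + SEA.

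The miR-200 family, known for keeping cells epithelial by lowering Zeb factors, had 4 of 8 members called lower and none higher, with a median of -0.42, where 4.97% of all miRNAs were called lower. DESeq2 called 1 of the 8 and upper-quartile scaling 2. miR-200a-5p had 2.58, 5.34 and 2.58 CPM in NC and 1.23, 2.09 and 1.86 CPM in HT + SEA. The groups did not overlap, with a log2 fold change of -1.07, a standard error of 0.34 and an adjusted p of 0.0971 in edgeR, or 0.0313 once the replicate number was added as a block. It was 0.116 with the robust spread and 0.999 in DESeq2. The opposite-strand miR-3548, which the study placed in its network, gave -1.20 and an adjusted p of 0.0693, or 0.0144 with the block, from 58 counts in HT + SEA and 84 in NC. Both lost the call at the unadjusted threshold without replicate 2 of NC, at -0.58 and -0.77.

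The remaining members of the family rested on that library. miR-200a-3p had 6.23, 41.5 and 9.10 CPM in NC and 10.6, 18.3 and 14.4 CPM in HT + SEA, so that replicate 2 of NC was the highest and the other NC libraries were the lowest of the 6. Its log2 fold change was -0.46 at an unadjusted p called by edgeR, with an adjusted p of 0.409, and it was 0.91 in the other direction without replicate 2 of NC. miR-200b-3p (-0.39) and miR-429 (-0.72) likewise turned to 0.33 and 0.37, without passing the threshold. With the replicate block none of these 3 was called, at p-values of 0.879, 0.247 and 0.10 in edgeR, nor was any in DESeq2, at 0.617, 0.332 and 0.281. With the robust spread the unadjusted p of miR-200a-3p was 0.63 and that of miR-200b-3p 0.525 in edgeR. The summed level of the family was 80.6 CPM in replicate 2 of NC, 24.3 to 27.6 CPM in the other NC libraries and 29.4 to 35.5 CPM in HT + SEA. miR-205, another miRNA of surface epithelium, had 6.68, 2.16 and 3.39 CPM in NC and 2.83, 0.72 and 2.23 CPM in HT + SEA, with overlapping groups. Its log2 fold change was -1.08 at an adjusted p of 0.0693 in edgeR, or 0.00549 with the block, against 0.173 with the robust spread and 0.999 in DESeq2, and the unadjusted call was lost without replicate 1 of NC and without replicate 2 or 3 of HT + SEA.

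Other lists of border and cell types gave smaller differences. Of 3 tested members of the sensory miR-183 cluster, miR-96-5p was called lower (-0.48), where 4.97% of all miRNAs were. It had 5.01, 11.2 and 6.65 CPM in NC and 4.82, 6.48 and 5.73 CPM in HT + SEA. Replicate 2 of NC was again the highest, and the call was lost without it, without replicate 1 or 3 of HT + SEA and with the block, at an unadjusted p of 0.0521 in edgeR. Of 6 tested miRNAs of ciliated cells, such as those of the ventricle's lining, 3 were called lower and none higher, with a median of -0.17, where 4.97% of all miRNAs were called lower. DESeq2 called 2 of them lower and upper-quartile scaling 1, with a median of -0.08. miR-34c-5p had 3895, 3119 and 3326 CPM in NC and 2864, 2707 and 3030 CPM in HT + SEA, without overlap, at a log2 fold change of -0.29 and a standard error of 0.11. miR-34b-5p, from the same transcript, had 22.2, 19.3 and 27.4 CPM in NC and 18.1, 16.0 and 16.4 CPM in HT + SEA, also without overlap, at -0.46. Without replicate 1 of NC miR-34c-5p was no longer called, nor was miR-34b-5p without replicate 3 of NC. miR-34c-3p, at -0.35, overlapped between the groups, lost its call without any 1 library other than replicate 2 of NC, and was not called with the block, at an unadjusted p of 0.0704 in edgeR. miR-449a-5p of the same cells was at 1.03 to 2.30 CPM and was not called. None of 4 choroid plexus miRNAs and none of 6 endothelial and mural miRNAs was called by edgeR or DESeq2, with miR-126a-3p of endothelium at -0.04 (standard error 0.11) and miR-204-5p of the choroid plexus at 0.00 (standard error 0.12). Upper-quartile scaling called miR-204-3p of the choroid plexus list higher, at 0.41, and no longer called miR-96-5p.

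Among the miRNAs higher in HT + SEA, miR-30b-5p and miR-30d-5p, of a family abundant in many tissues, were those that passed the adjusted threshold in edgeR. This family was singled out after its values were seen. miR-30b-5p had 448, 504 and 361 CPM in NC and 650, 682 and 672 CPM in HT + SEA. All HT + SEA libraries lay close together and above NC. Its mean was 437 ± 72.2 CPM in NC and 668 ± 16.0 CPM in HT + SEA (SD, n = 3 each). The log2 fold change was 0.58 with a standard error of 0.13, at an adjusted p of 0.000387 in edgeR, 0.000962 with the robust spread and 0.00769 in DESeq2.

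miR-30d-5p had 16365, 18549 and 12825 CPM in NC and 21596, 21718 and 23028 CPM in HT + SEA. This also left no overlap, with a log2 fold change of 0.45 and a standard error of 0.11, at an adjusted p of 0.00254 in edgeR, 0.0104 with the robust spread and 0.143 in DESeq2. Both miRNAs kept their unadjusted call under all 13 other ways of processing and without each library in turn, but their adjusted call was lost without replicate 3 of HT + SEA (adjusted p of 0.45 and 0.893 in edgeR), without replicate 2 of HT + SEA (0.0857 and 0.0836) and without replicate 3 of NC (0.0549 and 0.321). It was lost as well with filterByExpr (0.0632 and 0.221 in edgeR), with at least 10 counts (0.0837 and 0.291) and with all groups in the fit (0.158 and 0.0848), and with known miRNAs only it was lost for miR-30d-5p (0.136) and kept for miR-30b-5p (0.0287). The other guide strands of the family differed less and were not called, with miR-30c-5p at 0.18 (standard error 0.11), miR-30e-5p at 0.06 (standard error 0.11) and miR-30a-5p at -0.02 (standard error 0.11). miR-30d-3p, the other arm of the miR-30d hairpin, had 19.1, 17.0 and 16.3 CPM in NC and 24.1, 20.3 and 23.6 CPM in HT + SEA, without overlap, at 0.35 and an unadjusted p of 0.0535 in edgeR.

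miR-676 was nearly level in NC, with 217, 214 and 215 CPM, and 259, 279 and 301 CPM in HT + SEA. The groups did not overlap, and the log2 fold change was 0.35 with a standard error of 0.14, at an adjusted p of 0.323 in edgeR and 0.127 in DESeq2. It was called without each library in turn. miR-434-3p, of the imprinted Dlk1-Dio3 locus, had 2510, 2574 and 2301 CPM in NC and 3018, 3075 and 2914 CPM in HT + SEA. It did not overlap either, at 0.26 with a standard error of 0.11 and an adjusted p of 0.54 in edgeR, and it was not called without replicate 3 of NC or replicate 2 of HT + SEA.

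Oligodendrocyte miRNAs, which drive the maturation of myelin-forming cells, gave 2 called higher and none lower of 5, with a median of 0.19, where 1.89% of all miRNAs were called higher. DESeq2 called none of the 5. miR-338-5p had 178, 299 and 289 CPM in NC and 302, 314 and 340 CPM in HT + SEA, at 0.30 (standard error 0.13) and an adjusted p of 0.567 in edgeR, 0.577 with the robust spread and 0.999 in DESeq2. Replicate 1 of NC was low and the other NC libraries were close to HT + SEA. miR-219a-2-3p had 1595, 2346 and 2070 CPM in NC and 2149, 2492 and 2530 CPM in HT + SEA, at 0.23 and with overlap. Neither was called without replicate 1 of NC or without replicate 2 or 3 of HT + SEA, and without replicate 1 of NC miR-338-5p differed by 0.07. The summed level of the list was 1978 CPM in replicate 1 of NC, 2718 and 3006 CPM in the other NC libraries and 2779 to 3178 CPM in HT + SEA.

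**Figure D3:**
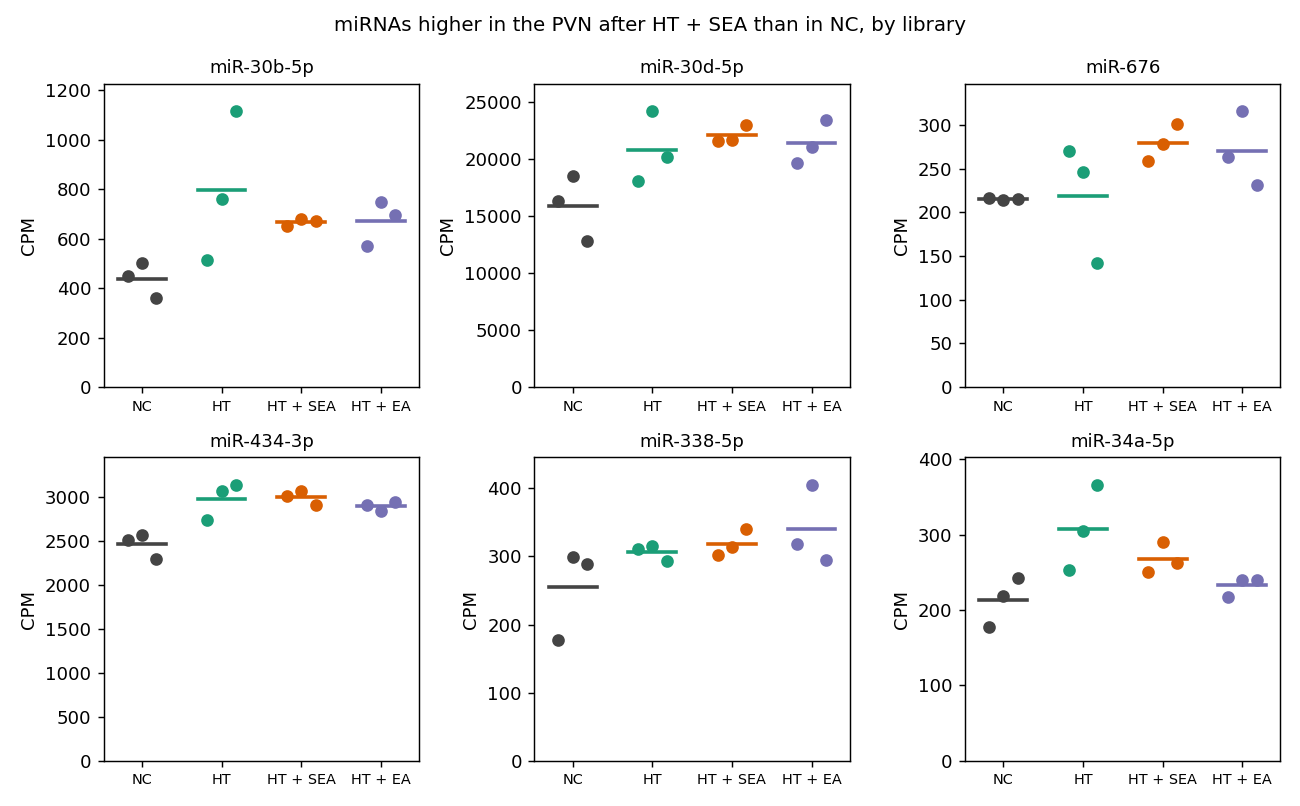
CPM (linear axes from 0) of 6 miRNAs in each PVN library of the NC, HT, HT + SEA and HT + EA groups, 3 points a group with a line at their mean. All 6 show HT + SEA above NC without overlap, and for miR-338-5p the distance is set by replicate 1 of NC, at 178 CPM.

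Of 8 neuronal miRNAs, miR-124-3p, which lowers non-neuronal transcripts in neurons, was called higher by edgeR, where 1.89% of all miRNAs were. It had 1441, 1341 and 964 CPM in NC and 1393, 1432 and 1674 CPM in HT + SEA. The groups overlapped, at 0.24 with a standard error of 0.12, and the call was lost without replicate 3 of NC, without replicate 2 or 3 of HT + SEA and in DESeq2, which called none of the 8. Upper-quartile scaling called 4 of the 8 higher, with a median of 0.21 where TMM gave 0.12. Of all 1006 miRNAs that scaling called 50 higher, with a median of 0.11 where TMM gave 0.03. Of 5 activity-regulated miRNAs, induced by neuronal firing, miR-134-5p (-0.29, standard error 0.12) and miR-212-5p (-0.29, standard error 0.14) were called lower, where 4.97% of all miRNAs were. Both overlapped between the groups, and both calls were lost without replicate 3 of NC and without replicate 2 or 3 of HT + SEA. DESeq2 called 1 of the 5 and upper-quartile scaling none. With the block miR-212-5p was not called, at an unadjusted p of 0.0739 in edgeR. miR-132-3p of the same cluster as miR-212 was at -0.22 (standard error 0.12) and was not called. None of 5 miRNAs of the miR-7 and miR-375 list, which are enriched in neurons that secrete hormones, was called by edgeR or DESeq2, with miR-7a-5p at -0.13 (standard error 0.10) and miR-7b at -0.05 (standard error 0.11).

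Of the 4 miRNAs listed for targets in the stress axis, 2 were called higher and 2 lower, where 6.86% of all miRNAs were called. miR-124-3p stands on the neuronal list as well and miR-34c-5p on that of ciliated cells, so these calls are not separate from those given above. miR-18a-5p and miR-124-3p are known to lower the glucocorticoid receptor, and miR-34a-5p and miR-34c-5p the CRH receptor type 1. miR-18a-5p had 1.97, 2.53 and 2.17 CPM in NC and 1.07, 1.44 and 1.04 CPM in HT + SEA, without overlap, at -0.93 with a standard error of 0.43. miR-34a-5p had 178, 219 and 242 CPM in NC and 251, 290 and 263 CPM in HT + SEA, also without overlap, at 0.31 with a standard error of 0.14. miR-34a-5p and miR-34c-5p carry the same seed and were called in opposite directions. The adjusted p of these 4 was between 0.323 and 0.661 in edgeR, and DESeq2 called 1 higher and 1 lower. Upper-quartile scaling called 2 higher and 1 lower, without miR-34c-5p. miR-18a-5p lost its call without replicate 2 of NC and without replicate 1 or 3 of HT + SEA, and miR-34a-5p without replicate 1 of NC and without replicate 2 or 3 of HT + SEA.

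Of 11 known miRNAs that the study names in its PVN networks, 2 were called higher and 1 lower, with a median of 0.07, where 6.86% of all miRNAs were called. A predicted miRNA named there, matched by its number to novel_583, was not on the list, had a mean of 0.333 counts and was not called, at an unadjusted p of 0.334 in edgeR. That list was chosen by the study on these samples and is no independent evidence of a direction. miR-328a-3p had 1757, 1832 and 1923 CPM in NC and 2346, 2019 and 2288 CPM in HT + SEA, without overlap, at 0.25 with a standard error of 0.11 and an adjusted p of 0.586 in edgeR. It lost its call without replicate 1 of NC and without replicate 1 or 3 of HT + SEA. miR-34a-5p and miR-3548, whose counts nearly repeat those of miR-200a-5p, were the others called, and upper-quartile scaling added miR-204-3p, at 0.41. miR-92b-3p (0.07, standard error 0.13), miR-1224 (-0.13, standard error 0.14), miR-3099 (-0.21, standard error 0.15) and miR-667-5p (-0.29, standard error 0.16) were not called.

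None of 9 let-7 miRNAs and none of 6 miR-29 miRNAs was called by edgeR or DESeq2, and their medians were 0.02 and -0.03. With upper-quartile scaling miR-29a-3p was called higher, at 0.24. The summed miR-29 level was 4511 to 5168 CPM in NC and 5234 to 5751 CPM in HT + SEA, without overlap. In the test against HT, 3 of the 6 miR-29 miRNAs were called lower in HT + SEA, where 4.7% of all miRNAs were. Of 40 miRNAs of the Dlk1-Dio3 locus, an imprinted cluster active in neurons, 1 was called higher and 3 lower, with a median of 0.02, where 6.86% of all miRNAs were called. With upper-quartile scaling 4 were called higher and 1 lower, with a median of 0.10. The median of all miRNAs was then 0.11, with 50 called higher and 37 lower. The members of the locus called lower with TMM were miR-136-5p (-0.35), miR-134-5p (-0.29) and miR-379-5p (-0.24), and their groups overlapped. Each lost its call without replicate 3 of NC and without replicate 3 of HT + SEA.

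Of the 69 called miRNAs, 54 had a mean of at least 10 counts and 15 a lower one. Among the 326 predicted miRNAs tested, 2 were called higher and 14 lower, in all 4.91% of them where 6.86% of all miRNAs were called. novel_1137 had 77 reads in replicate 3 of NC, 0 and 1 in the other NC libraries and 0, 0 and 1 in HT + SEA, and without replicate 3 of NC it was not called. novel_272 had 2.73, 2.91 and 1.36 CPM in NC and 1.38, 1.01 and 0 CPM in HT + SEA, at -1.58 with overlapping groups. Its adjusted p in edgeR was 0.0693, or 0.0013 with the block, and the unadjusted call was lost without replicate 3 of HT + SEA. novel_854 had 8.20, 9.84 and 10.6 CPM in NC and 14.5, 15 and 10.2 CPM in HT + SEA, at 0.45 with overlapping groups. miR-181b-1-3p, a passenger strand, had 10.3, 10.2 and 7.47 CPM in NC and 10.9, 13.6 and 14.0 CPM in HT + SEA, at 0.43 without overlap. Each of the last 2 lost its call in 3 of the 6 fits without a library, novel_854 without replicate 1 of NC and without replicate 1 or 2 of HT + SEA, miR-181b-1-3p without replicate 3 of NC and without replicate 2 or 3 of HT + SEA.

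**Figure D4:**
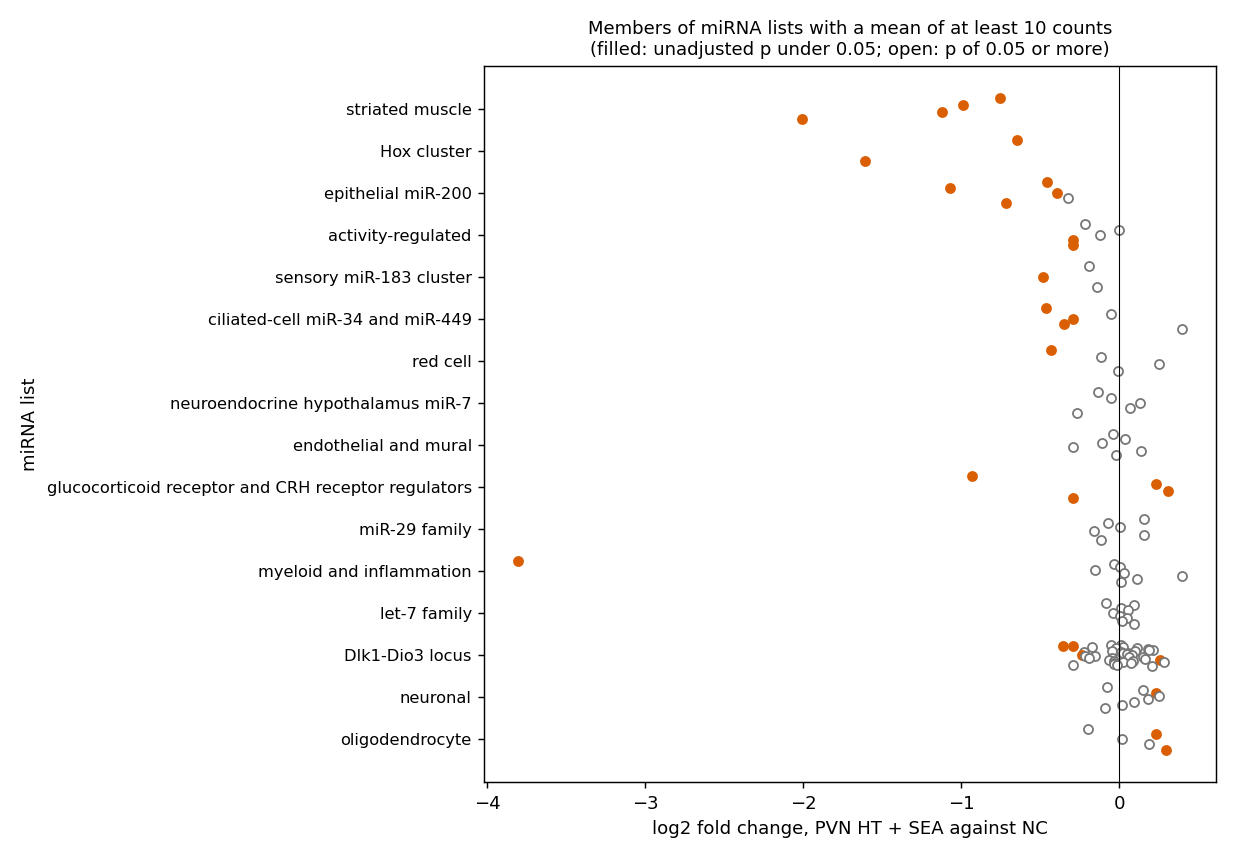
Log2 fold change in the PVN (HT + SEA against NC, horizontal axis) of members of the miRNA lists with a mean of at least 10 counts, 1 circle a miRNA. Filled circles passed an unadjusted p under 0.05 with edgeR, which holds for 4 muscle miRNAs between -2.01 and -0.75, and open circles did not.

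HT + SEA was also tested directly against HT, which asks what the needles added to the operation, in libraries of which the 3 HT + SEA ones are shared with the comparison above. Of 1000 miRNAs, 83 (8.3%) passed the unadjusted threshold, 36 (3.6%) higher and 47 (4.7%) lower in HT + SEA, and 2 (0.2%) an adjusted p under 0.05. Those were miR-200a-3p, with 7.40, 4.31 and 5.70 CPM in HT against 10.6, 18.3 and 14.4 CPM in HT + SEA, and miR-200b-3p, with 5.80, 3.34 and 3.26 CPM against 8.81, 9.21 and 12.6 CPM. There was no overlap for either. The log2 fold changes were 1.34 and 1.32, with adjusted p-values of 0.00678 and 0.0105 in edgeR, and both kept their unadjusted call under the 13 alternatives and without each library. Their adjusted call was lost with filterByExpr, with at least 10 counts, with known miRNAs only and with all groups in the fit.

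The muscle miRNAs, apart from miR-1-3p, did not pass the threshold in the test of HT + SEA against HT. miR-1b had 258, 204 and 260 CPM in HT and differed by 0.02 (standard error 0.13) from HT + SEA. miR-206-3p had 15.7, 10.6 and 8.51 CPM in HT, a difference of 0.15 (standard error 0.22). miR-133a-3p had 6.83, 6.04 and 10.8 CPM in HT, above each HT + SEA library, at -0.49 (standard error 0.24). Their summed list was 226 to 290 CPM in HT and 285 to 383 CPM in HT + EA, both below the 387 to 675 CPM of NC. miR-1-3p was called lower against HT at -0.79, with 8.08, 3.88 and 2.71 CPM in HT. Its groups overlapped, the difference was -0.19 without replicate 1 of HT, and the call was lost without that library, without any 1 HT + SEA library, with filterByExpr, with at least 10 counts, with known miRNAs only and in DESeq2.

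miR-223-3p was low in HT as well, with 1.02, 1.40 and 1.54 CPM, and was 8.98 to 11.9 CPM in HT + EA. HT + SEA was higher than HT by 1.82 on the log2 scale, which was called at an unadjusted p of 0.00151 with an adjusted p of 0.168 in edgeR and is opposite in direction to the difference from NC, with 11.1 CPM in replicate 1 and overlapping groups. Without replicate 1 of HT + SEA the difference was 0.22 and was not called. The call was lost with the robust spread as well, at an unadjusted p of 0.172 in edgeR. miR-30b-5p had 513, 760 and 1116 CPM in HT, which spanned the HT + SEA libraries, at -0.23 (standard error 0.16). miR-30d-5p had 18119, 24207 and 20158 CPM in HT, at 0.10 (standard error 0.10). miR-10b-5p had 28.0 to 45.1 CPM in HT and 128 to 174 CPM in HT + EA. It was also called higher in HT + SEA than in HT, by 0.83 on the log2 scale (standard error 0.32) at an unadjusted p of 0.0148 and an adjusted p of 0.41 in edgeR, where it was lower than in NC. Its groups overlapped too, with replicate 1 of HT + SEA alone above HT, and without that library the difference was -0.25 and was not called. The call was also lost without replicate 2 of HT, with the robust spread, with filterByExpr, with at least 10 counts, with known miRNAs only, with all groups in the fit and in DESeq2. Of the 54 miRNAs called against NC with a mean of at least 10 counts, 15 were called against HT, 7 in the same direction. miR-676 was called higher than in HT too (0.35, adjusted p of 0.585 in edgeR). miR-34c-5p and miR-34c-3p, lower than in NC, were called higher than in HT (0.27 and 0.42, adjusted p of 0.41 and 0.405 in edgeR).

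The CEA of rats of the same groups gave fewer calls, in libraries that are not shared with the PVN. Of 1014 miRNAs, 24 (2.37%) passed the unadjusted threshold, 8 (0.789%) higher and 16 (1.58%) lower in HT + SEA, and 0 (0.0%) an adjusted p under 0.05 with edgeR. DESeq2 called 7 at the unadjusted threshold. The CEA libraries called 5 miRNAs that the PVN libraries also called, which is 7.25% of the 69 and 20.8% of the 24. They were miR-676, higher in both, miR-136-5p, novel_272 and miR-217-3p, lower in both, and miR-34c-3p, lower in the PVN and higher in the CEA.

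miR-676 had 198, 196 and 191 CPM in the NC libraries of the CEA and 244, 310 and 393 CPM in the HT + SEA libraries. As in the PVN, NC was nearly level and did not overlap with HT + SEA, at a log2 fold change of 0.64 with a standard error of 0.17. Its adjusted p was 0.929 in edgeR. miR-30b-5p had 810, 822 and 780 CPM in NC and 902, 1179 and 994 CPM in HT + SEA, and miR-30d-5p 24044, 25084 and 20521 CPM against 27182, 30258 and 28303 CPM. Neither overlapped between the groups, and their differences of 0.30 and 0.25 (standard errors 0.15 and 0.14) were not called.

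The muscle miRNAs, miR-223-3p and miR-10b-5p did not pass the threshold in the CEA. In the CEA, miR-1b differed by -0.19 (standard error 0.20), miR-133a-3p by 0.01 (standard error 0.28) and miR-206-3p by -0.04 (standard error 0.25). miR-223-3p had 1.27, 10.7 and 10.8 CPM in NC and 19.0, 1.38 and 1.74 CPM in HT + SEA, with a difference of -0.09 (standard error 0.62). miR-10b-5p varied as widely, with 26.9, 201 and 177 CPM against 159, 11.4 and 68.8 CPM. The difference between the nuclei was tested as an interaction over 12 libraries, where 0 (0.0%) of 1076 miRNAs passed an adjusted p under 0.05 with edgeR and 24 (2.23%) passed unadjusted, 9 (0.836%) higher and 15 (1.39%) lower in the PVN, or 14 with DESeq2. The smallest adjusted p in edgeR was 0.0896, for miR-206-3p, with a difference of -1.95 between the log2 fold changes of the PVN and the CEA, and miR-223-3p had -3.71 at an adjusted p of 0.204. miR-1b (-0.78, unadjusted p of 0.00917), miR-133a-3p (-1.11, 0.00482) and miR-10a-5p (-0.85, 0.0198) were called in this test at the unadjusted threshold, each with an adjusted p of 1.0 in edgeR. Over 508 miRNAs with a mean of at least 10 counts in each comparison, the log2 fold changes of the PVN and of the CEA had r = 0.176 and rho = 0.143, as a description across miRNAs, which are not independent.

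**Figure D5:**
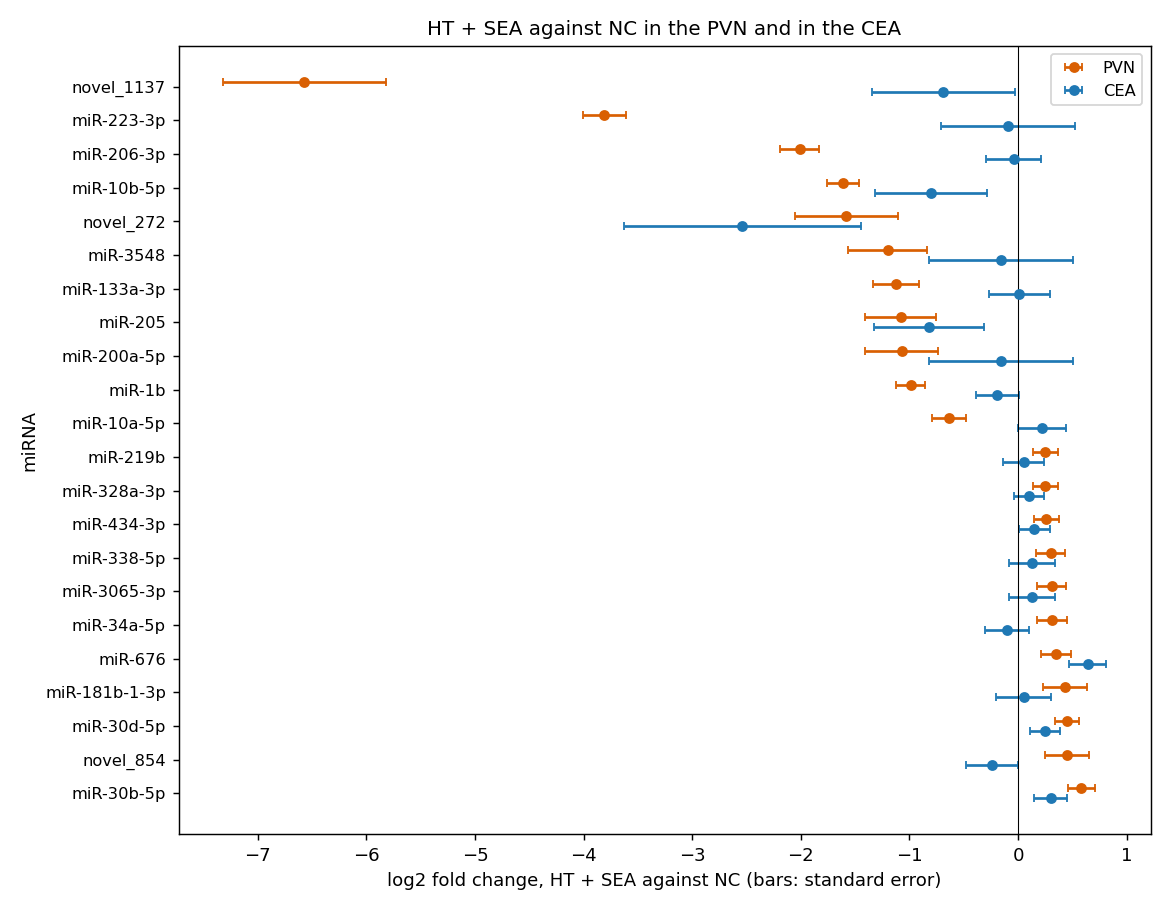
Log2 fold change (HT + SEA against NC, horizontal axis) of the named miRNAs in the PVN (orange) and in the CEA (blue), with bars for the standard error of each edgeR fit. The PVN bars use a spread shared by all miRNAs and are narrow also for miR-223-3p, at -3.81, whose PVN libraries varied widely, and miR-676 and the miR-30 pair lie above 0 in both nuclei.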

How the data were processed

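The authors deposited raw counts of reads per miRNA, without normalization, for 703 known and 395 predicted rat miRNAs. Another 24 columns of scaled values were not used. Per the labels and methods, libraries were made with a NEBNext small RNA kit, and reads were filtered, mapped with HISAT2 and counted with featureCounts. The methods name a rat genome for the mapping (mRatBN7.2), the labels' processing notes GRCh38 (hg38), and the conflict could not be settled here. How reads that match several miRNAs were counted is not given in the sources used here. Reads were counted on both strands of overlapping miRNAs, and the repeated members of such pairs held 15.6% to 16.6% of the counts of the 6 libraries.

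Counts were fitted in R 4.3.3 with edgeR 4.0.16 and limma 3.58.1 (TMM, glmQLFit, glmQLFTest), each comparison on its own 6 libraries and on miRNAs with at least 1 count there. An interaction term over 12 libraries tested whether the nuclei differed. miRNAs were called at the study's unadjusted p under 0.05, with the Benjamini-Hochberg adjusted p beside it. Standard errors were taken from the log2 fold change and the square root of the F statistic. They thus rest on edgeR's spread, which was shared fully between miRNAs in the PVN comparison with NC. The procedure was tested on simulated counts whose spread was set by the level of a miRNA alone. That test does not cover miRNAs that vary more widely between replicates. Alternatives were DESeq2 1.42.0, scaling by upper quartile, by library totals or by size factors, a filter at 10 counts or by filterByExpr, predicted miRNAs left out, repeated counts or opposite-strand partners used once (the latter chosen after seeing the data), a fit of all groups, a block on the replicate number, thinning to the smallest library, a robust spread, and leaving out each library. Deviations from the group mean correlated between same-numbered PVN libraries of HT + SEA and NC (r = 0.333, 0.219 and 0.168). The sources do not say what a number marks, so the main fits treated the libraries as unpaired. The block on the replicate number is an alternative for that reason.

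Named are the 12 miRNAs with the smallest p in each direction with a mean of at least 10 counts, members of the lists, the 10 most abundant, and for another comparison up to 5 with an adjusted p under 0.05. The lists and the comparison were chosen with earlier results of these data known. Mature sequences were found for 637 of the 703 known miRNAs and 18 of the 24 named. Python 3.11.15, numpy 2.4.6, pandas 2.3.3, scipy 1.17.1 and matplotlib 3.10.9 were used for tables and figures. Libraries of mRNA and circRNA were not used here.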

Additional observations from a re-analysis of the deposited data

How the results depend on the processing

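The count of miRNAs called for HT + SEA against NC in the PVN at an unadjusted p, 69, was 36 with DESeq2, 38 with filterByExpr, 43 with at least 10 counts, 42 with known miRNAs only and 48 with the replicate block, and 31 to 90 without 1 library (42 without replicate 2 and 31 without replicate 3 of HT + SEA). The 11 at an adjusted p were 4 with DESeq2, 5 with filterByExpr, 5 with at least 10 counts, 6 each with known miRNAs only, all groups in the fit and the robust spread, 15 with the block, and 0 to 19 without 1 library (18 without replicate 1, 19 without replicate 2 and 6 without replicate 3 of NC, 6 without replicate 2 and 0 without replicate 3 of HT + SEA). DESeq2 kept miR-1b, miR-133a-3p with miR-133c, and miR-30b-5p. Of the 54 called with a mean of at least 10 counts, 44 remained with the block and 29 with DESeq2, and 6 of the 10 lost with the block are given beside their results; the others were novel_1040, miR-324-5p and the opposite-strand pair miR-380-5p and miR-3579, named after their values were seen. Against HT, 83 became 51 with DESeq2, 47 with filterByExpr, 55 with known miRNAs only, 68 with the block and 25 to 94 without 1 library (36 without replicate 1 and 25 without replicate 3 of HT + SEA). The 2 at an adjusted p became 7 with library totals, 9 with upper quartile, 0 each with filterByExpr, at least 10 counts, known miRNAs only and all groups, 11 with the block, 6 with the robust spread and 0 to 31 without 1 library. In the CEA, 24 became 7 with DESeq2, 8 with filterByExpr, 12 with at least 10 counts, 14 with known miRNAs only, 13 with all groups, 32 with the block and 16 to 47 without 1 library, and 0 at an adjusted p became 1 with upper quartile, 2 with the block and 0 to 6 without 1 library. For the difference between the nuclei, 24 became 14 with DESeq2, 9 with filterByExpr, 31 with the block and 16 to 50 without 1 library, and 0 became 1 with upper quartile, 4 with the block and 0 to 15 without 1 library. Same-numbered libraries of the CEA, or of HT and HT + SEA, did not all deviate together (r = -0.312 to 0.155 and 0.16), so their block only shares a number. Fewer miRNAs are tested under the filters; otherwise the cause was not tested. Of 42 named log2 fold changes, 3 reversed, all without replicate 2 of NC (miR-200a-3p at 0.91, miR-200b-3p at 0.33 and miR-429 at 0.37); over the fits without 1 library they ran from -0.86, -0.70 and -1.14 to those values. Of the values without 1 library, 176 of 252 kept their call and direction, as did 431 of 535 under the other alternatives. NC was sequenced less deeply, and thinning all libraries to the smallest called 59, with 11 at an adjusted p.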
